A study of Mus musculus with 12 samples.

Results

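The genes described here are those that the deposited annotation places in the mitochondrion in mouse bone marrow mesenchymal stem cells (BMSCs) that were induced toward bone. BMSCs are adherent marrow stromal cells, able to become osteoblasts, adipocytes or chondrocytes. Of the 658 genes in the table, 84 carried the mitochondrion term of the Gene Ontology. The 9 that also carried the kinase activity term were left out, as were 4 further genes set aside by name. Of the 71 genes that remained, 66 reached 1 TPM (a transcript level corrected for length and scaled to a fixed total per library) in 6 or more of the 12 libraries, and these 66 are the genes compared below. The choice used annotation, level and the names of the 4 genes set aside. All 4 passed the level filter and remain among the 512 genes used for comparison below. The difference between the groups was not a criterion, but earlier results of these data were known when the genes were chosen.

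Both groups were wild-type BMSCs in osteogenic medium with 100 nM dexamethasone, 10 mM sodium β-glycerophosphate and 50 µM ascorbic acid. One group of 6 libraries received no further agent and is called the control. The other group of 6 libraries received the agent that the labels spell α-Asaronel, read here as α-asarone, a phenylpropanoid from Acorus plants. Dose, length of exposure, sex and age of the mice and the number of animals were not stated in the labels. The series text speaks of biological replicates, with no mention of separate cultures or mice, so each p-value reflects only how these libraries vary, which may be technical.

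Mitochondria oxidise pyruvate, fatty acids and amino acids and pass the electrons along the respiratory chain of the inner membrane, whose proton gradient drives ATP synthase. Nearly all mitochondrial proteins are encoded in the nucleus, made in the cytosol and drawn in through the TOM complex of the outer membrane and the TIM complexes of the inner membrane, while a small set is made inside on mitochondrial ribosomes. In stromal cells that turn into osteoblasts, oxidative metabolism is known to be linked to differentiation. Genes of the mitochondrial genome itself were not analysed here.

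An annotation term is not a measured location. Of the 66 genes, 33 also carried a term for a mitochondrial compartment, with 21 in the inner membrane, 14 in the matrix, 3 in the mitochondrial ribosome, 2 in the outer membrane and 1 in the intermembrane space, some in several. The other 33 included proteins best known for work elsewhere, such as the ubiquitin-activating enzyme Uba1 and the secreted protein Ltbp1. The nucleus term was present on 17 of the 66. By the role lists, 32 genes fell into 9 lists and 34 into none. Most genes of these lists were not in the table, so each list below stands only for its measured genes.

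The summed TPM of the 66 genes differed by less than its spread. Their TPM added up to 3745 ± 20.1 in α-asarone libraries and to 3747 ± 63.9 in control libraries (SD, n = 6 each), with 3725 to 3774 in the treated libraries lying inside the 3656 to 3828 of the controls. Their share of the table's estimated counts was 6.71% ± 0.0931 in treated and 6.59% ± 0.101 in control libraries (SD, n = 6 each), a difference larger than either SD, with overlapping ranges of 6.59% to 6.84% and 6.44% to 6.75%. This share was not tested. The table's counts totalled 843595 to 1224256 per library, of which Apoe alone took 19.6% to 23.0%. These totals are not library depths, because the table held 5.36% to 5.67% of a library's TPM. Fewer cells of a type and less RNA per cell cannot be told apart in such bulk libraries.

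In edgeR's quasi-likelihood test over all 512 genes that passed the same level filter, 13 of the 66 genes passed (19.7%), where 30.3% of all 512 genes did. Calls were made where the p-value, adjusted by Benjamini-Hochberg over the 512 genes, was under 0.05. The calls were 7 higher with α-asarone (10.6%, against 12.9% of all genes) and 6 lower (9.09%, against 17.4%). No set test was run on these shares, so nothing particular to the mitochondrial genes is read from them. The median size of the log2 fold change, sign ignored, was 0.08 in the 66 genes and 0.08 in all 512. The largest change was 1.40-fold, for Oas1c, the 1 gene of the 66 (1.52%) whose ratio between the groups was 25% or more above 1 in either direction. Among all 512 genes, 48 (9.38%) reached that ratio. TPM values of the groups did not overlap for 3 of the 66 genes (4.55%, against 14.3% of all 512), namely Tcirg1, Mrpl4 and Ltbp1.

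The number of calls rested partly on single libraries and on the scaling. TMM factors and table totals came from genes of the table alone, which held 5.36% to 5.67% of a library's TPM. Without α-asarone replicate 3, and also without α-asarone replicate 6, 8 genes passed. Calls over all 512 genes fell as well, from 30.3% to 27.5% and 27.0%. Scaled by table totals instead of TMM factors, which shifted the median of all genes by 0.04 (log2), 19 passed (36.9% of all genes did), 16 of them higher and 3 lower. Rises then made up 84.2% of the calls, in place of 53.8%, and over all genes 67.2%, in place of 42.6%. DESeq2 called the same 13 genes (31.2% of all genes passed), and limma on log2(TPM + 1) called 10 (22.9% of all genes), of which 8 were among the 13. No called gene changed direction under any scaling tried.

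**Figure D1:**
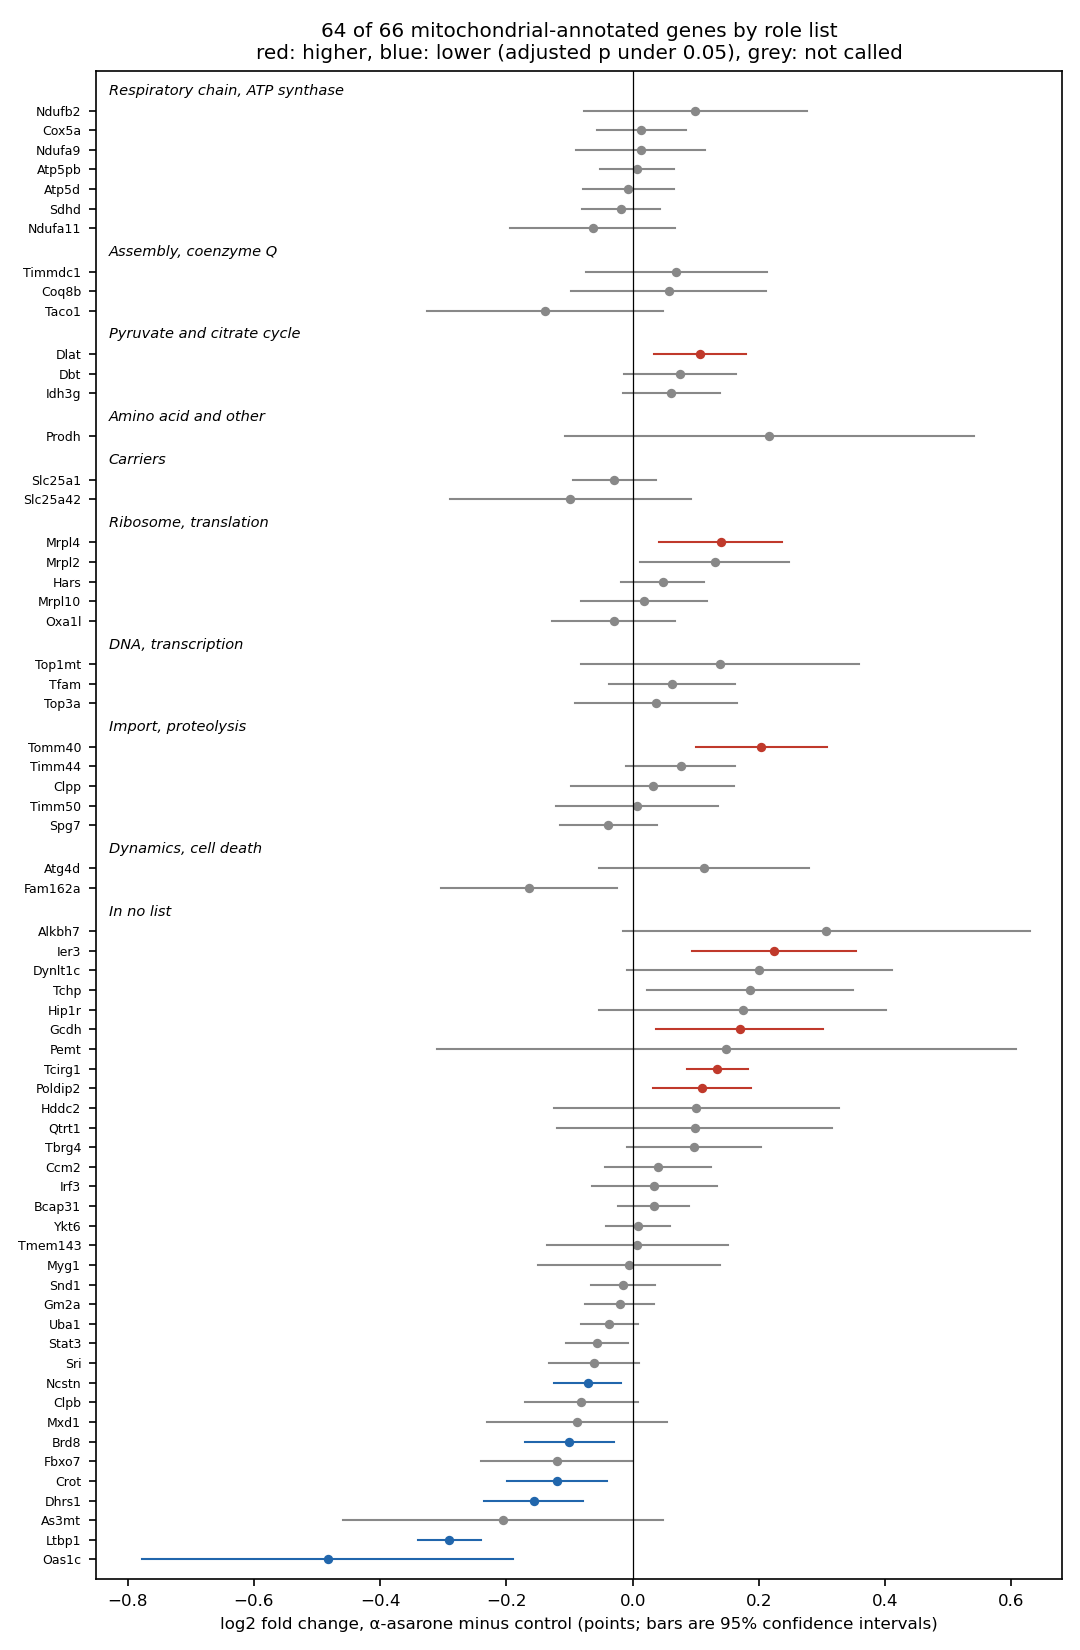
Log2 fold change (α-asarone minus control, x axis) of 64 of the 66 genes with its 95% confidence interval, grouped by role list. Red genes were called higher (7), blue lower (6) and grey not called (51 drawn). Oas1c and Ltbp1 lie lowest.

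Promoter sequence is shown for Tomm40, Gcdh and Dlat, called genes of import and matrix metabolism that rose, and for Slc25a1, a carrier gene without a call, so that both can be read side by side. They are the 250 bases before the RefSeq start on build GRCm38.p6, written 5′ to 3′ on the gene's strand, with matches to the motifs named below in capitals. RefSeq windows were matched for 56 of the 66 genes, 67 windows in all. Among those without a window were Brd8, Coq8b, Dbt, Hars, Mrpl4, Tmem143, Top1mt and Top3a.
Tomm40, chr7:19715430-19715679, minus strand: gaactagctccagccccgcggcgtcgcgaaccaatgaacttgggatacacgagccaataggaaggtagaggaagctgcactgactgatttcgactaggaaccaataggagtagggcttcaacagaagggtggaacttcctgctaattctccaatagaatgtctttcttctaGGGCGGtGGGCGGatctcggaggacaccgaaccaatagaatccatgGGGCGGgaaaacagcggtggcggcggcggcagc
Gcdh, chr8:84893922-84894171, minus strand: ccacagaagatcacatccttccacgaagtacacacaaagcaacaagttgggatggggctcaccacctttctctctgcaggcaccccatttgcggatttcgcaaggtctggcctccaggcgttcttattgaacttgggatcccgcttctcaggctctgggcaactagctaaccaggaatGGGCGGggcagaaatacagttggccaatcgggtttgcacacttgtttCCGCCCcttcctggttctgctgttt
Dlat, chr9:50659781-50660030, minus strand: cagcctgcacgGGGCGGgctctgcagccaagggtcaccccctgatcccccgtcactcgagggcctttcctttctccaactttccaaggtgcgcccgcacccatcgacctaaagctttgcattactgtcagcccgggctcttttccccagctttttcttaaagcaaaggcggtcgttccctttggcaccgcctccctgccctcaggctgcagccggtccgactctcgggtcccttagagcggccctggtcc
Slc25a1, chr16:17928220-17928469, minus strand: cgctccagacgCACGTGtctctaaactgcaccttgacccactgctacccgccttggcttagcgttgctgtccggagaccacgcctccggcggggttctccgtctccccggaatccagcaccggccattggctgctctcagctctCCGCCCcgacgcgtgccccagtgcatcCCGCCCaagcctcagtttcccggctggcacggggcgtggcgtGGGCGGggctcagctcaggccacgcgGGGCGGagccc

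The capitals in Tomm40 are 3 GC boxes (GGGCGG, bound by Sp1-type factors), which begin 79, 72 and 33 bases before the start. Gcdh has a GC box 72 bases before the start and another on the opposite strand at 25, and Dlat has 1, at 239. Slc25a1 has an E-box (CACGTG) at 239 and 4 GC boxes, at 37 and 11 on its own strand and at 106 and 79 on the opposite one.

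Motifs were searched on both strands over the whole window, from 250 bases before to 50 after the start. The GC box was in 58.2% of the 67 windows of these genes and in 35.6% of all 32817 RefSeq windows of the reference. The reference windows were not limited to expressed genes or to the deposited table. These shares therefore cannot tell mitochondrial genes from other expressed genes. The corresponding shares were 19.4% and 8.86% for the GABP motif (CCGGAAG), 11.9% and 4.59% for the NRF1 motif (GCGCA, any base, GCGC), 13.4% and 2.74% for the YY1 motif (AAGATGGC), 13.4% and 7.15% for the E-box, 4.48% and 4.72% for the ERR element (AAGGTCA), and 7.46% and 3.43% for the interferon response element (GAAA, 2 bases of any kind, GAAA). NRF1, GABP, YY1 and ERR are factors known to act on nuclear genes of mitochondria. The E-box and GC box matches can overlap those of other motifs. A match is a description of letters and not a bound site.

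The 7 respiratory chain and ATP synthase subunit genes in the table showed no call. The role list held 108 genes, so most subunits were not measured here. None of the 7 passed, where 30.3% of all 512 genes did. Their median log2 fold change was 0.01, against 0.00 for all 512 genes. At an unadjusted edgeR p under 0.05 the count was also 0, against 204 of all 512. Atp5pb (ENSMUSG00000000563, chromosome 3, 105942698 to 105960099, minus strand, GRCm38), which encodes a stalk subunit of ATP synthase, ranged from 207 to 221 TPM with α-asarone (median 213) and from 205 to 225 TPM in controls (median 215). Its change was 0.447%, with a 95% confidence interval from −3.57% to 4.63%, at a mean count of 3004. Atp5d, the delta subunit of ATP synthase, ranged from 152 to 175 TPM (median 164) against 155 to 174 TPM (median 165). Its interval ran from −5.34% to 4.67%. The groups overlapped across nearly their whole range for both subunits.

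Cox5a, a nuclear subunit of cytochrome c oxidase, averaged 154 ± 2.94 TPM in the treated and 153 ± 4.80 TPM in the control libraries (SD, n = 6). Sdhd, which anchors succinate dehydrogenase in the inner membrane, was at 135 ± 4.34 TPM and 137 ± 4.64 TPM. Among the 3 complex I genes, the NADH dehydrogenase subunits, Ndufa9 was at 60.6 ± 3.57 TPM against 60.5 ± 6.06 TPM. Their intervals were wider where counts were lower. For Ndufb2, with a mean count of 211, the interval ran from −5.25% to 21.03%, and for Ndufa11 from −12.6% to 4.78%. Summed over the 7 genes, treated libraries held 851 ± 17.4 TPM and control libraries 855 ± 19.4 TPM.

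**Figure D2:**
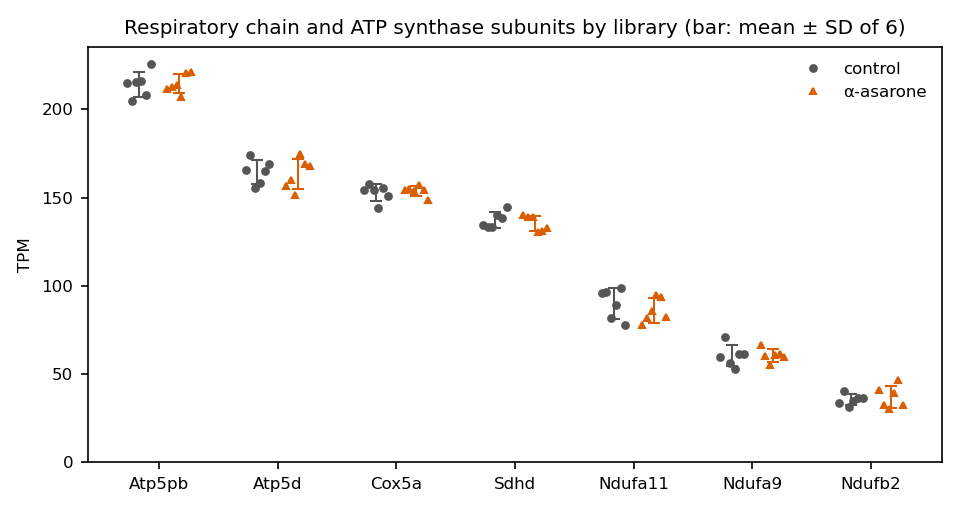
TPM (y axis, from 0) of 7 respiratory chain and ATP synthase subunit genes in each of 6 control (circles) and 6 α-asarone (triangles) libraries, with mean ± SD as bars. The clouds overlap for every gene, for example 205 to 225 TPM and 207 to 221 TPM for Atp5pb.

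Assembly factors and coenzyme Q genes were also without calls, 0 of 3, and none had an unadjusted edgeR p under 0.05. Timmdc1, an assembly factor of complex I, was at 16.2 ± 1.02 TPM against 15.5 ± 1.15 TPM. Coq8b, which encodes an atypical kinase-like protein of coenzyme Q synthesis, was at 13.1 ± 1.69 TPM against 12.6 ± 0.714 TPM. Taco1, a translational activator of a mitochondrially encoded cytochrome c oxidase subunit, had the lowest estimate of the list, a log2 fold change of −0.14 with an interval from −20.2% to 3.42%.

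Pyruvate and keto acid dehydrogenase genes were called once in 3. Dlat (ENSMUSG00000000168, chromosome 9, 50634633 to 50659780, minus strand), the E2 core of the pyruvate dehydrogenase complex that makes acetyl-CoA, ranged from 31.0 to 34.3 TPM with α-asarone (median 33.4) and from 29.0 to 32.5 TPM in controls (median 30.9). The groups overlapped between 31.0 and 32.5 TPM. By edgeR it changed by 0.11 ± 0.04 in log2 units (SE, adjusted p = 0.0213), a rise of 7.69%, and it did not pass with limma on log2(TPM + 1) (adjusted p = 0.0646) or without any of 3 libraries (α-asarone replicates 5 and 6 and control replicate 5, adjusted p up to 0.0713). Dbt, the corresponding core of the branched-chain complex, was at 29.8 ± 2.23 TPM against 27.4 ± 1.51 TPM, without a call (log2 fold change 0.07, adjusted p = 0.202). Idh3g, a regulatory subunit of the citrate cycle's NAD-dependent isocitrate dehydrogenase, was at 101 ± 5.21 TPM against 96.9 ± 5.58 TPM (log2 fold change 0.06, adjusted p = 0.229).

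Genes of mitochondrial translation were called once in 5. Mrpl4 (ENSMUSG00000003299, chromosome 9, 21002738 to 21008839, plus strand), a protein of the large mitochondrial ribosomal subunit, ranged from 41.5 to 46.1 TPM with α-asarone (median 43.0) and from 36.4 to 41.2 TPM in controls (median 39.5). Every treated library lay above every control library, with a narrow gap between them. On the log2 scale the change was 0.14 ± 0.05 (SE; edgeR, adjusted p = 0.0262), and the call was lost without α-asarone replicate 2 (adjusted p = 0.0586) or control replicate 1 (adjusted p = 0.0678). Of the other large-subunit genes, Mrpl2 had a log2 fold change of 0.13 (adjusted p = 0.0892) and Mrpl10 of 0.02 (adjusted p = 0.818). Mrpl10 was at 44.6 ± 1.45 TPM against 44.2 ± 4.07 TPM. Oxa1l, the insertase that places proteins into the inner membrane, and Hars, a histidyl-tRNA synthetase gene that overlaps Hars2 on the opposite strand, did not pass. Counts of Hars were not whole in 75% of libraries, so its value is uncertain.

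In the import, folding and proteolysis list, 1 of 5 genes passed. Tomm40 (ENSMUSG00000002984, chromosome 7, 19701313 to 19715438, minus strand), the channel of the outer membrane translocase, ranged from 44.1 to 50.9 TPM with α-asarone (median 46.8) and from 35.8 to 44.9 TPM in controls (median 41.7). Treated libraries were the higher ones, and the groups met between 44.1 and 44.9 TPM. By edgeR it changed by 0.20 ± 0.05 in log2 units (SE, adjusted p = 0.00258), a rise of 15.2%, and it passed in all 25 alternatives tried. Neither inner membrane translocase gene passed. Timm44, which links the import motor to the channel, was at 39.4 ± 1.247 TPM against 37.4 ± 1.56 TPM (log2 fold change 0.08, adjusted p = 0.18), and Timm50, the presequence receptor, was at 23.3 ± 1.09 TPM against 23.2 ± 2.13 TPM (log2 fold change 0.01). Whether the change of Tomm40 differs from theirs was not tested. Clpp, the matrix protease subunit, was at 34.2 ± 2.04 TPM against 33.4 ± 2.50 TPM.

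Spg7 (ENSMUSG00000000738, chromosome 8, 123062942 to 123097760, plus strand), which encodes the protease subunit paraplegin, gave different answers in the deposited units. Its TPM ranged from 48.8 to 59.7 with α-asarone (median 51.8) and from 55.5 to 60.8 in controls (median 58.2). On log2(TPM + 1) limma called it lower, by −0.14 (adjusted p = 0.0379), while on counts edgeR gave −0.04 ± 0.04 (SE, adjusted p = 0.456). The count that 1 TPM stood for, on a log2 scale relative to each library's median gene, was −0.24 ± 0.06 with α-asarone and −0.34 ± 0.05 in controls (SD, n = 6). Spg7 overlaps the gene model Gm20388 on the same strand.

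The 3 genes of mitochondrial DNA maintenance and transcription did not pass, nor did any at an unadjusted edgeR p under 0.05. Tfam (ENSMUSG00000003923, chromosome 10, 71225464 to 71238280, minus strand), which packages mitochondrial DNA and starts its transcription, ranged from 41.8 to 52.6 TPM with α-asarone (median 43.7) and from 38.5 to 47.3 TPM in controls (median 40.9). Its change was 4.44%, with an interval from −2.55% to 11.9%. The topoisomerase genes Top3a (10.5 ± 0.688 against 9.95 ± 0.719 TPM) and Top1mt (8.01 ± 1.61 against 7.27 ± 0.621 TPM) overlapped between the groups.

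No carrier gene passed. Slc25a1, the citrate carrier that exports citrate for lipid synthesis, was at 88.6 ± 4.62 TPM against 89.3 ± 3.54 TPM (interval from −6.39% to 2.60%). Slc25a42, a coenzyme A carrier, was at 4.53 ± 0.283 TPM against 4.86 ± 0.553 TPM. In the amino acid list none of 2 genes passed. Prodh, the first enzyme of proline breakdown, had a log2 fold change of 0.22 with a wide interval from −7.13% to 45.4% at a mean count of 45.3. In the dynamics and cell death list, Fam162a, a hypoxia-responsive gene linked to cell death, was at 43.5 ± 3.78 TPM against 48.6 ± 2.88 TPM (log2 fold change −0.16, adjusted p = 0.0683). It passed with limma on log2(TPM + 1) (adjusted p = 0.0411) and without α-asarone replicate 5 (adjusted p = 0.0181). Atg4d, an autophagy protease, was at 4.78 ± 0.636 TPM against 4.22 ± 0.434 TPM without a call, and none of its 12 counts was whole.

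The 10 remaining calls came from the 34 genes in no role list. Of the 10, Gcdh and Poldip2, which rose, and Dhrs1, which fell, carried a matrix or inner membrane term. Gcdh (ENSMUSG00000003809, chromosome 8, 84886393 to 84893921, minus strand), the matrix dehydrogenase of lysine and tryptophan breakdown, ranged from 15.4 to 19.1 TPM with α-asarone (median 16.4) and from 13.9 to 16.4 TPM in controls (median 15.0). On the log2 scale it changed by 0.17 ± 0.06 (SE; edgeR, adjusted p = 0.0452), close to the threshold, and it kept the call in 14 of 25 alternatives. Without α-asarone replicate 1 the adjusted p was 0.145. The other libraries whose removal ended the call of Gcdh were α-asarone replicates 3 and 6 and control replicates 2, 3 and 5. Poldip2, a DNA polymerase δ interacting protein with a matrix term, ranged from 54.8 to 60.3 TPM (median 58.7) against 48.7 to 55.5 TPM (median 54.0), a log2 fold change of 0.11 ± 0.04 (adjusted p = 0.0272). Its call ended without α-asarone replicates 3, 5 or 6 or control replicate 4 (adjusted p up to 0.0886).

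Dhrs1 (ENSMUSG00000002332, chromosome 14, 55739020 to 55745690, minus strand), a short-chain dehydrogenase/reductase gene, fell. It ranged from 64.4 to 74.5 TPM with α-asarone (median 69.0) and from 71.9 to 80.0 TPM in controls (median 77.0), with an overlap between 71.9 and 74.5 TPM. On the log2 scale the change was −0.16 ± 0.04 (SE; edgeR, adjusted p = 0.0021), and the call held in all 25 alternatives. Crot (ENSMUSG00000003623, chromosome 5, 8966033 to 8997324, minus strand), the carnitine octanoyltransferase that readies medium-chain products of peroxisomal oxidation for mitochondria, fell as well. Its TPM ranged from 41.8 to 48.7 (median 44.6) against 46.0 to 54.6 (median 47.9). By edgeR it changed by −0.12 ± 0.04 in log2 units (SE, adjusted p = 0.0175), and the call ended with limma on log2(TPM + 1) (adjusted p = 0.0602), with table totals (adjusted p = 0.135), without α-asarone replicate 3 (adjusted p = 0.056) and without control replicate 6 (adjusted p = 0.0702).

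The largest falls were of genes known chiefly for other places in the cell. Ltbp1 (ENSMUSG00000001870, chromosome 17, 75005568 to 75392512, plus strand), which encodes a secreted protein that holds latent TGF-β in the matrix, ranged from 65.6 to 67.8 TPM with α-asarone (median 67.1) and from 80.2 to 85.0 TPM in controls (median 81.3). The groups were far apart, and no library of one came near the other. On the log2 scale the change was −0.29 ± 0.02 (SE; edgeR, adjusted p = 9.6e-11), a change of −18.2%, and it passed in all 25 alternatives.

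Oas1c (ENSMUSG00000001166, chromosome 5, 120800194 to 120812514, minus strand), a member of the interferon-induced oligoadenylate synthetase family, ranged from 1.42 to 3.54 TPM with α-asarone (median 2.27) and from 2.45 to 4.16 TPM in controls (median 3.11). The groups overlapped, and the mean count was 49.2. The gene belongs to a multigene family, and its counts were whole in all 12 libraries. By edgeR it changed by −0.48 ± 0.14 in log2 units (SE, adjusted p = 0.0101). The log2 ratio of its mean TPM was smaller in size, at −0.35, so the deposited units differed for this gene. It did not pass with limma on log2(TPM + 1), at −0.28 (adjusted p = 0.193), nor on log2(TPM + 0.1), at −0.38 (adjusted p = 0.187). Oas1h, a relative, was listed at 0 TPM in 11 of 12 libraries.

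Brd8, a bromodomain protein of a histone acetyltransferase complex, and Ncstn, a subunit of the γ-secretase protease, had the smallest called falls. Brd8 ranged from 35.5 to 41.2 TPM (median 36.6) against 39.1 to 43.0 TPM (median 40.8), with a log2 fold change of −0.10 ± 0.03 (edgeR adjusted p = 0.0272). Its call ended with table totals (adjusted p = 0.238) and without any of 6 libraries, α-asarone replicates 1, 3, 4 and 6 and control replicates 2 and 3. Ncstn ranged from 135 to 144 TPM (median 138) against 140.3 to 156 TPM (median 144), with a log2 fold change of −0.07 ± 0.03 (adjusted p = 0.0363). It kept its call in 10 of 25 alternatives, with a highest adjusted p of 0.464 under table totals, and the libraries whose removal ended it were α-asarone replicates 3, 4, 5 and 6 and control replicates 1, 2 and 5. Ncstn overlaps Copa on the opposite strand, and its counts were not whole in 50% of libraries.

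Tcirg1 and Ier3 rose. Tcirg1 (ENSMUSG00000001750, chromosome 19, 3896050 to 3907133, minus strand), the a3 subunit of the vacuolar proton pump by which osteoclasts acidify bone, ranged from 181 to 199 TPM with α-asarone (median 193) and from 169.7 to 181 TPM in controls (median 173). The lowest treated library, at 180.8 TPM, lay just above the highest control, at 180.5 TPM. On the log2 scale the change was 0.13 ± 0.02 (SE; edgeR, adjusted p = 5.08e-05), and the call held in all 25 alternatives. Markers of the cells known for high Tcirg1 moved in both directions. The 1 measured gene of the osteoclast list, Acp5, was at 25.1 to 38.4 TPM with α-asarone and 57.9 to 78.4 TPM in controls. Of 4 measured macrophage and myeloid markers, Cfp and Spi1 were called higher and Itgb2 lower. Clec10a was not called (log2 fold change 0.11, edgeR adjusted p = 0.0717). The summed TPM of the 4 was 967 to 1123 against 834 to 923, with none at 0. Cfp alone was at 428 to 550 TPM against 307 to 367 TPM. The part of these cells in the change of Tcirg1 was not tested.

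Markers of other cells moved with the groups as well. Of 15 osteoblast and osteocyte markers 4 were measured, and Col1a1 was called lower. The summed level was 1211 to 1430 TPM in treated and 1722 to 2105 TPM in control libraries. Nearly all of it was Col1a1, at 1208 to 1428 TPM and 1720 to 2103 TPM. Dlx3 had a positive estimate without a call, at 1.97 ± 0.503 TPM against 1.65 ± 0.248 TPM (SD). Fgf23 did not reach the level filter, and Sost was at 0 in all libraries. Both measured adipocyte markers, Angptl4 and Plin4, were called higher (45.2 to 51.9 against 22.1 to 25.4 TPM in sum). Cnn1 of smooth muscle was called lower (6.82 to 9.97 against 21.8 to 30.3 TPM), as was Sox9 of chondrocytes (7.15 to 8.60 against 7.28 to 10.96 TPM). Of 3 measured lymphocyte markers, Vpreb3 and Cd3g were at 0. The part of these cell types in the changes of the mitochondrial genes was not tested.

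Ier3 (ENSMUSG00000003541, chromosome 17, 35821684 to 35822923, plus strand), an immediate early gene with a role in cell survival, ranged from 27.3 to 31.8 TPM with α-asarone (median 30.6) and from 23.5 to 28.1 TPM in controls (median 26.4). By edgeR it changed by 0.22 ± 0.06 in log2 units (SE, adjusted p = 0.00747), a rise of 16.8%, and it passed in all 25 alternatives. The other 24 genes in no list did not pass. The highest of them and of all 66 was Uba1, at 228 ± 4.23 TPM against 234 ± 5.81 TPM (interval from −5.52% to 0.592%). Alkbh7, a matrix dioxygenase of the AlkB family, had the largest estimate without a call, 0.31 with an interval from −1.04% to 54.7% at a mean count of 46.2.

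**Figure D3:**
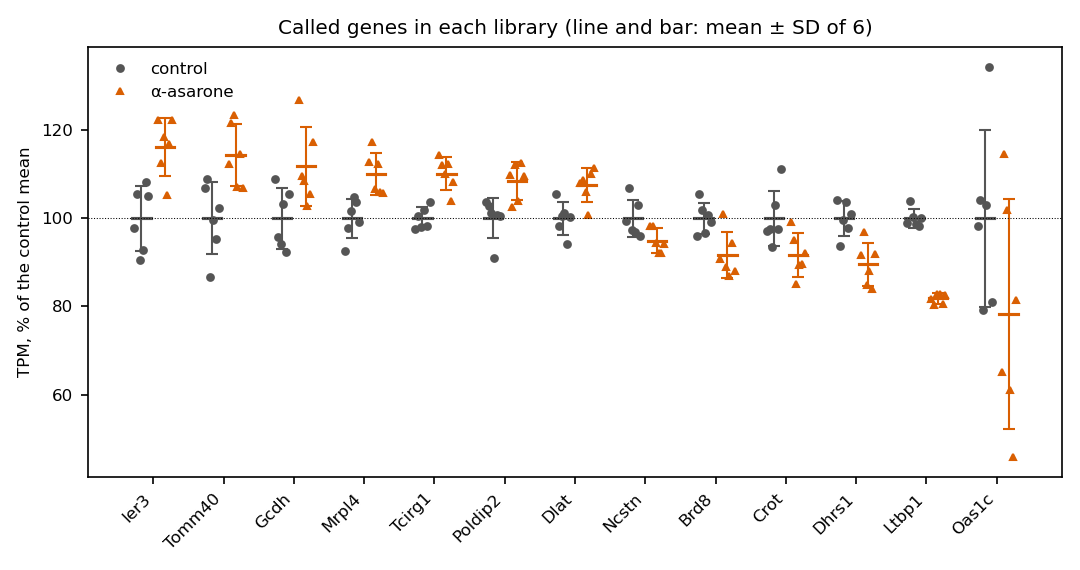
TPM of the 13 called genes in each library as a percentage of the gene's control mean (y axis), control circles and α-asarone triangles, with mean ± SD of 6 libraries. Ltbp1, Tcirg1 and Mrpl4 are the genes whose groups do not overlap; Oas1c has the widest spread.

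How firmly an absence of change can be stated depends on the counts. Of the 53 genes without a call, 43 had a 95% confidence interval that lay wholly within a ratio of 25% above 1 in either direction. Over all 66 genes, called or not, 53 had such an interval, so this limit does not separate called from uncalled genes. Among all 512 genes, 307 of the 357 without a call had one. The median standard error was 0.05 on the log2 scale, both in the 66 genes (0.049) and in all 512 (0.045), at a median mean count of 523 and 665. The controls' coefficient of variation had a median of 6.63% in the 66 genes and 6.10% in all 512.

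**Figure D4:**
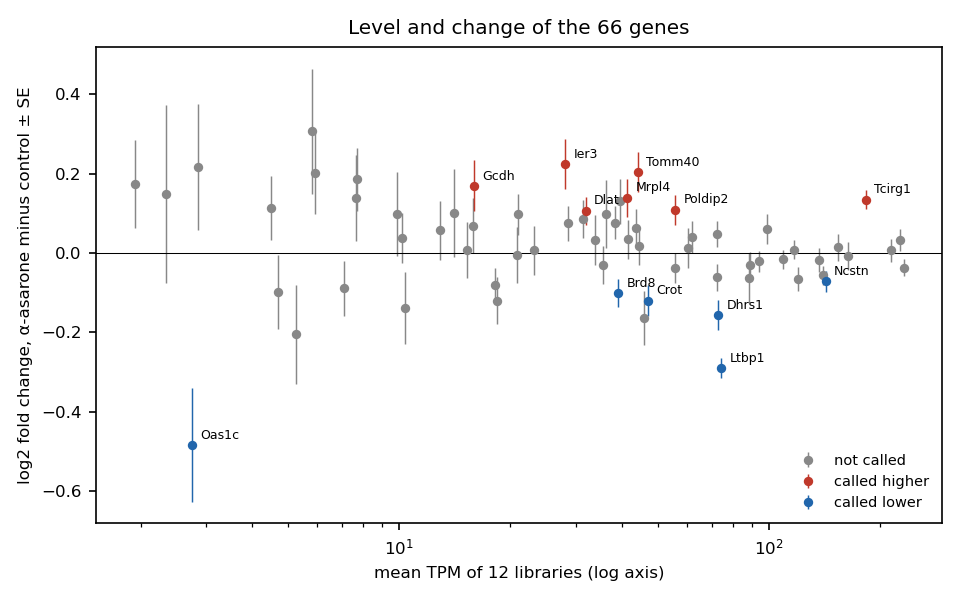
Mean TPM over 12 libraries (x axis, log scale) against log2 fold change ± SE (y axis) of the 66 genes, with called genes labelled. Error bars are longest at low levels, and Oas1c is the one called gene under 10 TPM.

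The genes with a compartment term can be set beside those without one. Among the 33 with such a term, 6 passed, 5 higher (Dlat, Gcdh, Mrpl4, Poldip2 and Tomm40) and 1 lower (Dhrs1). Among the 33 without, 7 passed, 2 higher (Ier3 and Tcirg1) and 5 lower (Brd8, Crot, Ltbp1, Ncstn and Oas1c). Over all 512 genes 30.3% passed, 12.9% higher and 17.4% lower, beside 15.2% and 3.03% of the genes with a term and 6.06% and 15.2% of those without. Their median log2 fold changes were 0.03 and 0.01. In the 14 genes with the matrix term, 13 had a positive estimate and 3 passed, all higher, with a median of 0.09. In the 21 with the inner membrane term, 12 were positive and 4 passed, 3 higher and 1 lower, with a median of 0.01. Over all 512 genes, 262 were positive. All 14 matrix genes were positive under table totals, median-ratio and upper-quartile factors, and 12 without α-asarone replicate 1 or control replicates 3 or 4. Those 3 scalings also raised the median of all genes, from 0.0007 to 0.044, 0.0065 and 0.0077. The 1 negative matrix estimate was only −0.0056 with TMM factors. All 14 were also positive with no filter on TPM, without α-asarone replicates 3, 4 or 6 and without control replicates 1, 2 or 6. With DESeq2, 13 were positive. Why the signs differed between settings was not tested. The difference between the sets of genes was not tested either.

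Of the 5 annotated genes below the level filter, 4 (Th, Oas1h, Tat and Cyp17a1) had at most 0.183 TPM in any library. Ngfr, a neurotrophin receptor gene, lay just outside with at least 1 TPM in 4 libraries. It was at 0.774 to 1.505 TPM with α-asarone and 0.343 to 0.832 TPM in controls. Just inside was Hip1r, an adaptor of clathrin-coated vesicles, at 1.41 to 4.39 TPM and 1.44 to 1.84 TPM, which passed the filter in all 12 libraries. With no filter, Ngfr had a log2 fold change of 0.90 (edgeR adjusted p = 0.00213).

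**Figure D5:**
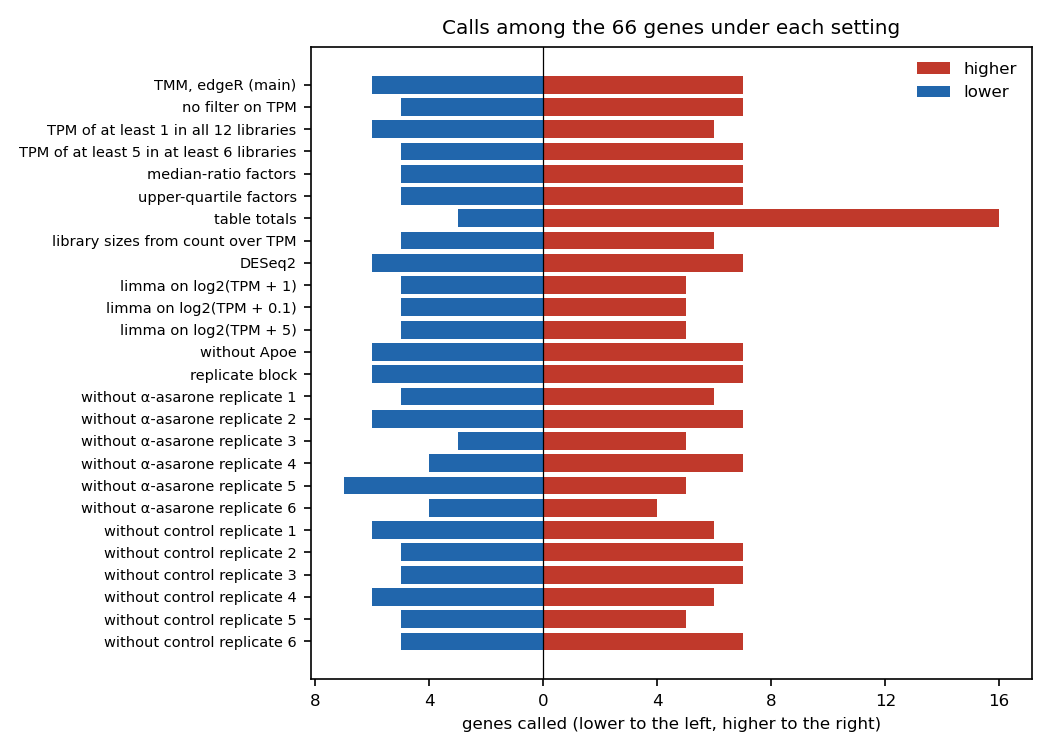
Number of the 66 genes called higher (red, to the right) and lower (blue, to the left) under each processing setting (rows). Counts run from 8 without α-asarone replicate 3 or 6 to 19 with table totals, against 13 in the top row. Over all genes 27.5%, 27.0% and 36.9% passed under these settings, against 30.3%.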

How the data were processed

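Poly(A) RNA of mouse BMSCs in osteogenic medium was sequenced, with 6 libraries per group. The authors deposited 1 table that holds TPM and estimated counts, per the file headers. The counts carry 2 decimals, and 7.45% to 9.57% of a library's values are not whole (tolerance 0.004). The submitters' processing notes name the builds GRCm38 and mm10. For aligner, quantifier and strand: not given in the sources used here. Coordinates are from GENCODE release M21 on GRCm38, which matched all 66 genes; 40 of these overlap another annotated gene, 16 on the same strand.

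Estimated counts were rounded and tested with edgeR 4.0.16 in R 4.3.3 (glmQLFit, glmQLFTest, TMM factors 0.976 to 1.03, no covariate) over the 512 genes that reached 1 TPM in 6 or more libraries. Standard errors were derived from that fit, as the size of the log2 fold change divided by the square root of the test's F statistic. The 95% confidence intervals used these standard errors and the t distribution. Alternatives used limma 3.58.1 on log2(TPM + pseudocount of 1, 0.1 or 5), DESeq2 1.42.0, other filters and scalings, the replicate block and each library left out. A fold change on log2(TPM + pseudocount) understates changes of low genes. Chi-square per degree of freedom was 2.24 to 11.2 in 30 replicate pairs, above sampling noise, so each library counted once.

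The genes, role lists and tests were chosen with earlier results of these data known. Named by rule were the called genes, the 2 of each role list with the highest mean TPM, the genes with the highest and lowest mean TPM, and those nearest the level filter on each side. Other genes, and the promoters shown, were chosen after their values were seen. The values of 2 of the 66 genes, neither of them called, are not reported here by name.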

Additional observations from a re-analysis of the deposited data

Results flagged for a closer look

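Single libraries were screened for values far from their group, in 136 groups of 6 values (each gene's TPM, the summed TPM of the 66 genes and the total count, per group). A gap to the nearest value that exceeded Dixon's 95% limit was found 6 times, and chance gives about 1 in 20, or 6.8. Hip1r reached 4.39 TPM in α-asarone replicate 6, while the rest of the group lay at 1.41 to 2.21 TPM. Pemt reached 3.66 TPM in α-asarone replicate 3, while the rest lay at 1.97 to 2.59 TPM. Poldip2 was lowest in control replicate 4, at 48.7 TPM where the remaining controls had 53.8 to 55.5 TPM, and its call ended without that library. Ltbp1 was highest in control replicate 2, at 85.0 TPM where the remaining controls had 80.2 to 81.9 TPM, all above every α-asarone library. Fam162a was highest in control replicate 3, at 54.2 TPM where the remaining controls had 45.9 to 48.3 TPM. Control replicate 2 also had the smallest table total, 843595 estimated counts where the remaining controls had 1068547 to 1173845. Without that library 12 of the 66 genes and 29.7% of all 512 passed.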

How the results depend on the processing

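The main fit made 13 calls, 7 higher and 6 lower. The calls or their split moved by over 1.5 times with table totals (16 higher, 3 lower) and without some single libraries. With only the 33 genes that carry a compartment term, 6 passed, 1 of them lower. That set is smaller, and its share of calls was 18.2%, against 19.7% of the 66 genes and 30.3% of all 512. Lower calls made up 3.03% of it, against 9.09% of the 66 and 17.4% of all 512. With 1 library left out, 8 to 13 genes passed, 4 to 7 higher and 3 to 7 lower, and 138 to 152 of all 512 against 155. Of 1644 alternative values for the 66 genes, 1568 stayed on the same side of the threshold. None reversed where the gene was called in the main fit or in the alternative. Small estimates without a call could change sign, as for Sdhd (log2 fold change −0.018 with TMM factors, 0.025 with table totals). Calls ended in 54 cases (8 genes) and appeared in 22 (15 genes). The cause was not tested. As to pairing, libraries with the same number correlated at −0.038 to 0.143, and their own number was the best match for 2 of 6, a hint from the data and not the design. With the replicate block 13 of the 66 genes and 168 of all genes passed. Low counts limit Alkbh7, Oas1c, Pemt and Prodh.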

Other observations

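The deposited units carry different information for a few of the 66 genes. The count that 1 TPM stood for, taken per library relative to its median gene, differed between the groups by more than 0.1 on the log2 scale for 2 of the 66 genes and 18 of all 512, and did not separate the groups for any of the 66. Those 2 genes were Prodh (−0.14) and Hip1r (−0.13), both low in level. Next in size were Oas1c (−0.099), also low in level and a called gene, and Spg7 (0.099). In Hip1r this quantity was 0.10 in α-asarone replicate 6, the library with the high TPM, while its controls lay between 1.22 and 1.52.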
